A study of Mus musculus with 24 samples.

Results

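The loci of 8 basic helix-loop-helix (bHLH) genes were examined in chromatin immunoprecipitation sequencing (ChIP-seq) peak lists from wildtype mouse cortex. The genes were Neurog1, Neurog2, Neurod1, Neurod2, Neurod6, Bhlhe22, Olig1, and Olig2. A peak was assigned to a gene when it overlapped the gene body in the GENCODE vM21 annotation of GRCm38 or the 50 kb on either side. It was called a promoter peak when it overlapped the 2000 bp upstream of the transcription start site (TSS). It was genic when it overlapped the gene body but not the promoter, and flanking otherwise. Of 314954 peaks in all lists, 532 lay at the 8 loci, of which 72 were promoter, 44 genic, and 416 flanking peaks. The windows of Olig1 and Olig2 overlap, and the 45 peaks that fell in both were counted once in these totals.

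The 6 lists stand for 3 transcriptional regulators (TRs), each at the embryonic stages E15.5 and E18.5, in days of gestation. ARID1B belongs to the BAF remodeler of nucleosomes, FOXP1 binds DNA through a forkhead domain, and TCF7L2 mediates Wnt signals in the nucleus. The sample labels name the last target TCF4, and the name of the antibody in the methods was used. Every sample was wildtype cortex, on a CD1 background by the study's methods, with no allele or agent that differed between groups, and each TR and stage has 2 replicates and a single list. By the study's methods the lists used were called on merged replicates, while GEO attaches each list to the first replicate, so whether its reads are those of 1 library or of both rests on the methods alone. No list has a replicate spread, and no difference between lists was tested. Whole cortex holds progenitors, neurons, and glia together, and a taller peak in fewer cells cannot be told apart from a lower peak in more cells.

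Proneural bHLH factors drive progenitors out of the cell cycle and into neuronal fate, in part by switching on Notch ligands and other bHLH genes in sequence. In the dorsal telencephalon, Neurog1 and Neurog2 act in progenitors of glutamatergic neurons, Neurod1 follows at the transition to postmitotic cells, and Neurod2, Neurod6, and Bhlhe22 are expressed in differentiating projection neurons. Olig1 and Olig2 belong to the same superfamily but mark ventral progenitors and the oligodendrocyte lineage.

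As a check of the tissue, promoter peaks were counted at genes of known pattern. Of 8 cortex markers, 7 had a promoter peak in all 6 lists (51.8% of protein-coding genes), and the exception, Fezf2, lacked only FOXP1 at E18.5. Of 8 markers of other tissues, 5 had none in any list (35.9% of protein-coding genes), and the remaining genes, Gata4, Nkx2-5, and Ptf1a, had peaks between 2.74-fold and 5.04-fold in some lists. The depth recovered from the values of each list was 26.3 M reads for FOXP1 at E18.5 and 57.3 to 80.7 for the other 5 lists. It is that of whichever library of the ChIP and input pair was smaller. Each ChIP read of FOXP1 at E18.5 was scaled to 0.5613, so there the input was smaller and 26.3 is not the ChIP depth. The input was also smaller for ARID1B (0.8560) and TCF7L2 (0.7754) at E15.5. In the remaining lists ChIP reads were not scaled, and the ChIP was the smaller library. The FOXP1 E18.5 list also held the fewest peaks (24872 against 32992 to 71411) and its lowest peak stood at 3.21-fold, above the lowest peak of every other list (2.33 to 2.66). A low recovered depth thus goes with every absence from that list given below, and its part in them was not tested.

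The sequences under 4 summits outside promoters and 1 promoter summit are shown because the comparisons below turn on these positions. Each is the 200 bp window around the tallest summit of its locus, read from GRCm38 on the strand of the named gene, and none overlaps an annotated UTR. Capitals mark matches to the motifs searched, with every motif searched on both strands and none contained in another. The motifs were the proneural E-box CAGATG, which reads CATCTG on the opposite strand, the palindromic E-box CAGCTG, the forkhead core TGTTTAC, which reads GTAAACA on the opposite strand, and the TCF/LEF core CTTTGAT, which reads ATCAAAG on the opposite strand.
Neurog1 downstream locus, chr13:56208620-56208819, minus strand: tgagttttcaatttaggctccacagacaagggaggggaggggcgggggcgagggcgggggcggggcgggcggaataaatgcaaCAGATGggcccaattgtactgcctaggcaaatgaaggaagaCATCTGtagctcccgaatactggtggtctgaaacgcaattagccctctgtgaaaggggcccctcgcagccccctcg
Neurog2 upstream locus, chr3:127625357-127625556, plus strand: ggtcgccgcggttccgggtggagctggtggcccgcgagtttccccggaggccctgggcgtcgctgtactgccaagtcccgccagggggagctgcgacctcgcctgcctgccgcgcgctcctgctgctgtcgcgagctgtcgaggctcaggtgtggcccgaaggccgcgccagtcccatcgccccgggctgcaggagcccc
Neurog2 promoter, chr3:127632607-127632806, plus strand: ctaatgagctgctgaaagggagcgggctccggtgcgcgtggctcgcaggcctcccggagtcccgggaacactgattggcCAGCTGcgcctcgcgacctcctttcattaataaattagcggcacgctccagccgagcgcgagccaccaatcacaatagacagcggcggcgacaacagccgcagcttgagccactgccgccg
Neurod6 downstream locus, chr6:55676939-55677138, minus strand: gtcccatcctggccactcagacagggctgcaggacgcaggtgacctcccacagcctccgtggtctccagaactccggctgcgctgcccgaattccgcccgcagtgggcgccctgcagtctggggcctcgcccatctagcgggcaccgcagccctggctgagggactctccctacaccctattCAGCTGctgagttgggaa
Olig2 downstream locus, chr16:91232232-91232431, plus strand: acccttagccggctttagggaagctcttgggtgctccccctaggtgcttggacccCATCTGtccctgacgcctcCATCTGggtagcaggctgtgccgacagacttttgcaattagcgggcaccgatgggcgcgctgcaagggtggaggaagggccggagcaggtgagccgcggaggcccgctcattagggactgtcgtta
The Neurog1 window held the proneural E-box at 2 places, in opposite directions, and the Olig2 window held it at 2 places in the same direction. The Neurog2 promoter and the Neurod6 locus each held a single palindromic E-box. The upstream Neurog2 window, which was 75.0% G and C, held none of the searched motifs.

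All 8 genes lay in peak-rich surroundings, and Neurod2 stood apart from the other 7. The number of peaks summed over the 6 lists was 186 for Neurod2, 69 for Olig1, 60 for Neurog1, 58 for Neurod6 and for Olig2, 57 for Neurog2, 45 for Bhlhe22, and 44 for Neurod1. Per 100 kb of window, this gave 178 peaks at Neurod2 and between 42.2 and 67.5 at the others, beside a median of 16.1 (quartiles 5.78 and 30.5) over 21951 protein-coding genes treated in the same way. Only 6 protein-coding genes had a higher summed density than Neurod2, and for Neurod1, the lowest of the 8, the number was 3268. In the windows of all members but Neurog2 and Bhlhe22, some of these peaks overlapped the promoter of another gene.

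**Figure D1:**
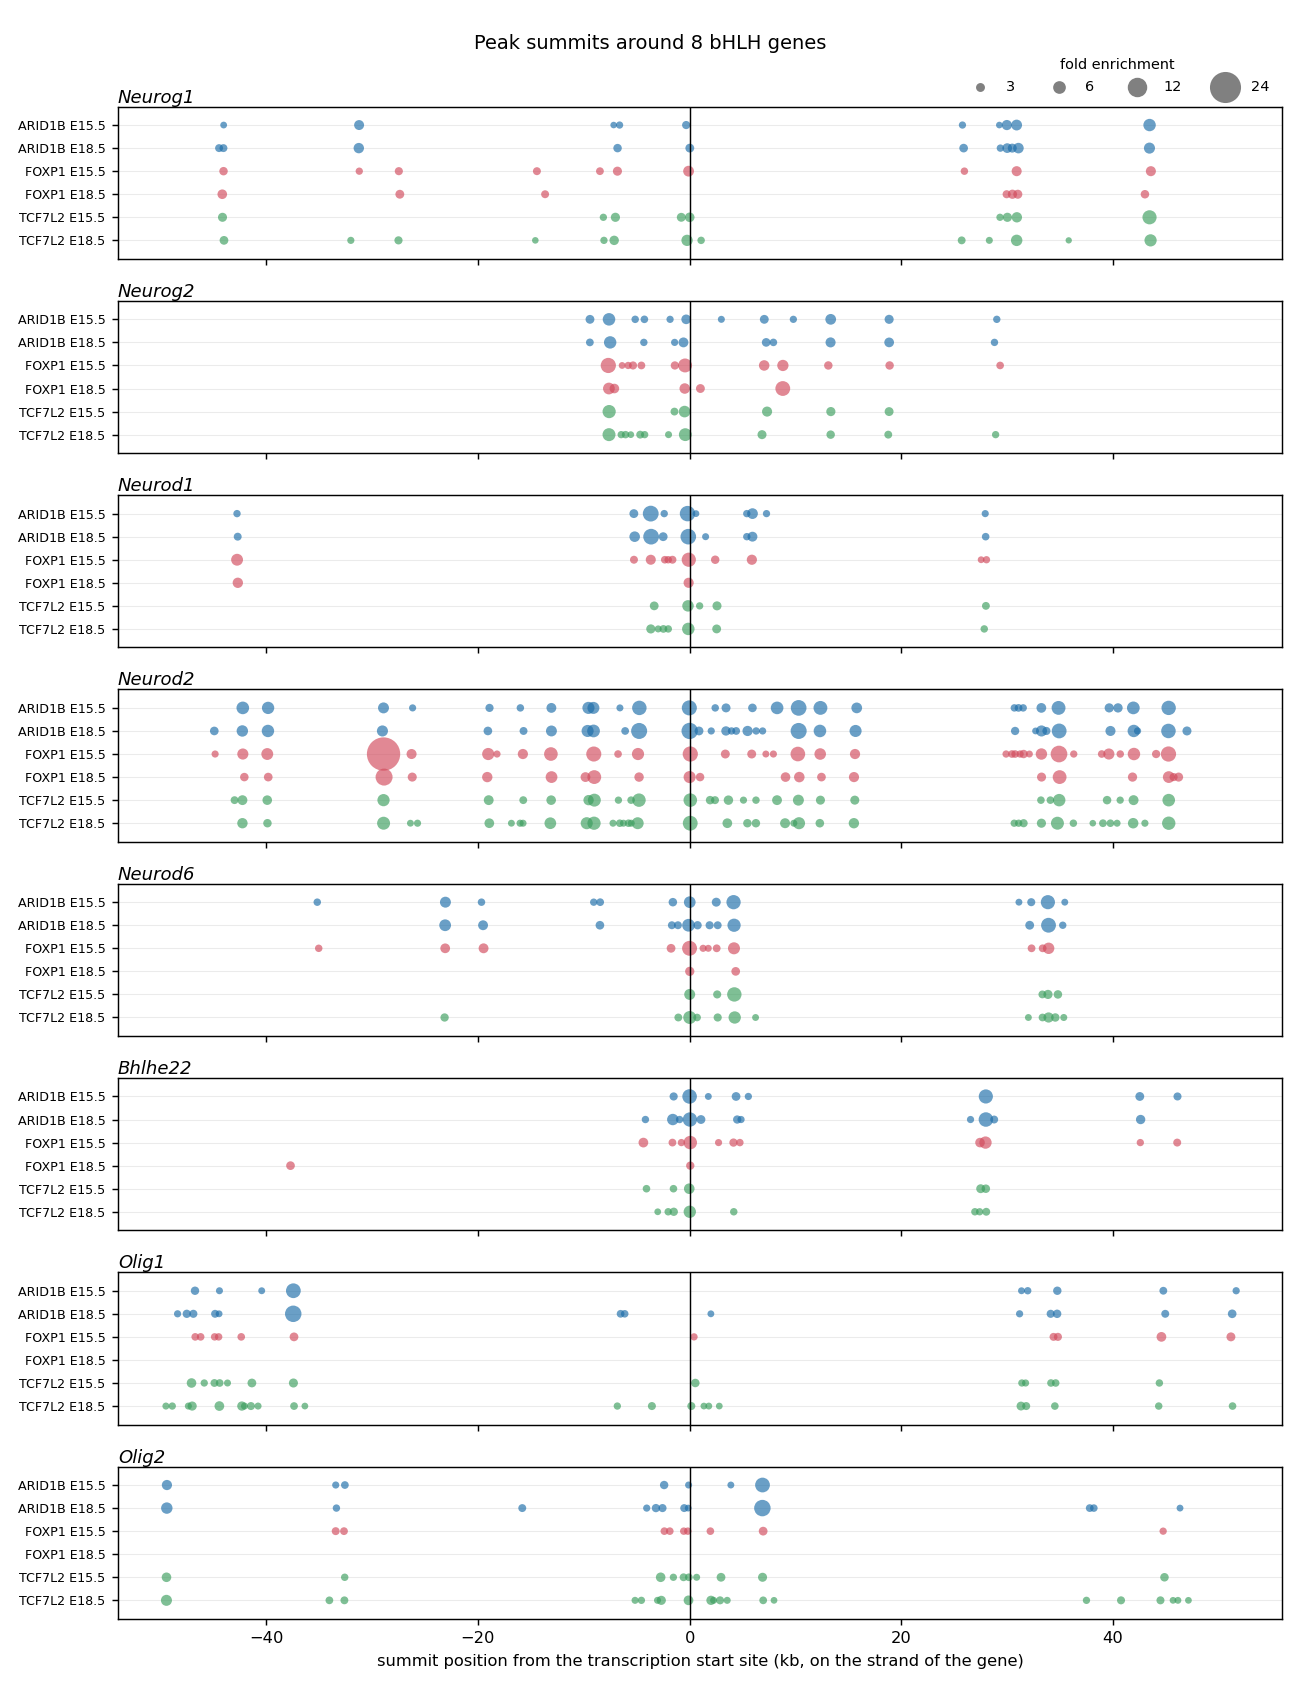
Position of every peak summit (dots) from the TSS of each gene, in kb on the strand of the gene, with a row for each peak list, color by TR (ARID1B blue, FOXP1 red, TCF7L2 green) and dot area rising with fold enrichment. The Neurod2 window holds the most summits, with gaps between them, and the FOXP1 E18.5 rows of Olig1 and Olig2 are empty.

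In the 5 lists other than FOXP1 at E18.5, every gene was above the upper quartile of protein-coding genes, with 4.80 peaks per 100 kb (Neurod1, TCF7L2 at E15.5) as the lowest value and 38.4 (Neurod2, TCF7L2 at E18.5) as the highest. In the FOXP1 E18.5 list, Neurod2 had 21 peaks, Neurog1 7, Neurog2 5, and Neurod1, Neurod6, and Bhlhe22 2 each. Per 100 kb, Neurod2 (20.1), Neurog1 (6.88), and Neurog2 (4.88) were above the upper quartile of that list (3.35), and the genes with 2 peaks (1.92 to 1.94) were between it and the median (1.68). No FOXP1 peak was called at E18.5 anywhere in the Olig1 and Olig2 windows, where FOXP1 at E15.5 had 11 and 9 peaks. The windows of 23.0% of protein-coding genes were likewise without a peak in that list. The Olig1 and Olig2 windows held 22 and 20 TCF7L2 peaks at E18.5, against 13 and 10 at E15.5, in lists of 53173 and 32992 peaks. For ARID1B they held 14 and 12 at E18.5 and 9 and 7 at E15.5, in lists of 68447 and 71411 peaks.

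**Figure D2:**
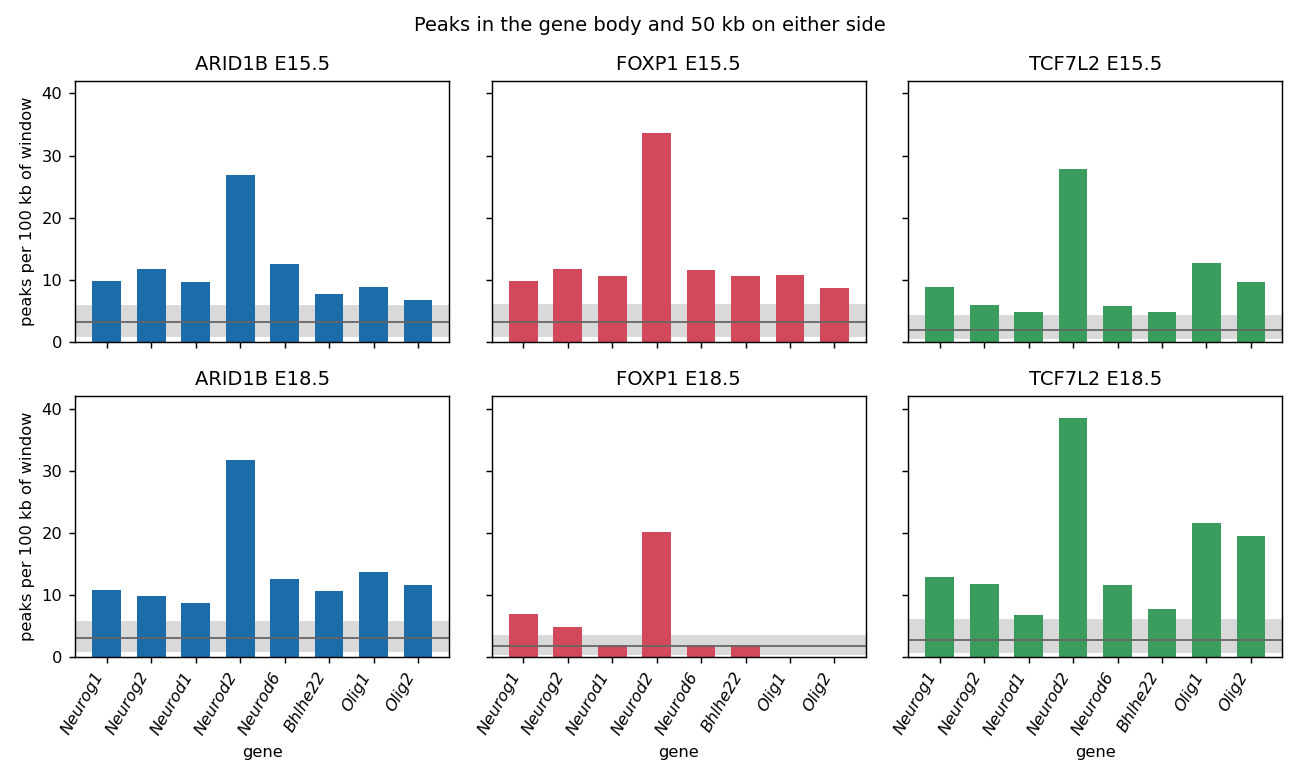
Peaks per 100 kb of window (bars, gene body plus 50 kb on either side) for each gene in each peak list, with the median (line) and the quartiles (gray band) of 21951 protein-coding genes. Neurod2 is the tallest bar in every panel, from 20.1 (FOXP1, E18.5) to 38.4 (TCF7L2, E18.5).

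Most members carried a promoter peak, which is also common among genes at large. ARID1B had a promoter peak at 7 of 8 genes at E15.5 (58.8% of protein-coding genes) and at 7 at E18.5 (57.3%), with Olig1 missing at both stages. FOXP1 had 8 at E15.5 (61.8% of protein-coding genes) and 5 at E18.5 (55.0%), where Neurog1, Olig1, and Olig2 were missing. TCF7L2 had 8 of 8 at both stages, beside 57.3% of protein-coding genes at E15.5 and 61.2% at E18.5. Peaks of all 3 TRs were found at 7 promoters at E15.5 and 5 at E18.5, beside 55.5% and 52.9% of protein-coding genes. The 5 promoters with a peak in all 6 lists were those of Neurog2, Neurod1, Neurod2, Neurod6, and Bhlhe22, beside 51.8% of protein-coding genes, and without the FOXP1 E18.5 list there were 7 (53.9% of protein-coding genes).

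The counts were lower in lists of the same size. Among the 20000 peaks of lowest p in each list, ARID1B kept 5 members at E15.5 and 4 at E18.5, each beside 33.8% of protein-coding genes. FOXP1 kept 6 at E15.5 (52.5%) but 4 at E18.5 (52.7%). TCF7L2 kept 7 at each stage (52.4% at E15.5, 53.1% at E18.5). Olig1 or Olig2 was among the missing members in all 6 lists. At a −log10 p of at least 15, FOXP1 at E18.5 had a promoter peak at Neurod2 alone, beside 41.7% of protein-coding genes. When the summit had to lie in the promoter, that list had 2 members, Neurog2 and Neurod1 (44.8%), and TCF7L2 at E15.5 had 5 (45.4%).

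The height of the promoter peak separated the members by TR, as the plots of fold enrichment and of rank show. Height is given as fold enrichment of ChIP over input at the summit, and rank as the percent of peak-bearing protein-coding promoters in the same list whose strongest peak was lower. For ARID1B, the promoters of Neurod1, Neurod2, and Bhlhe22 ranked between 92.9 and 97.6 at both stages and that of Neurod6 at 80.9 and 83.0. The ARID1B ranks of Neurog2 (42.9 and 36.4), Neurog1 (15.4 and 17.6), and Olig2 (1.96 and 6.21) were below the middle of the list. For FOXP1, no member ranked above 42.6 at either stage. TCF7L2 ranked Neurod2 highest of the 8 (80.0 and 87.6) and the Olig promoters lowest (4.15 to 24.4).

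**Figure D3:**
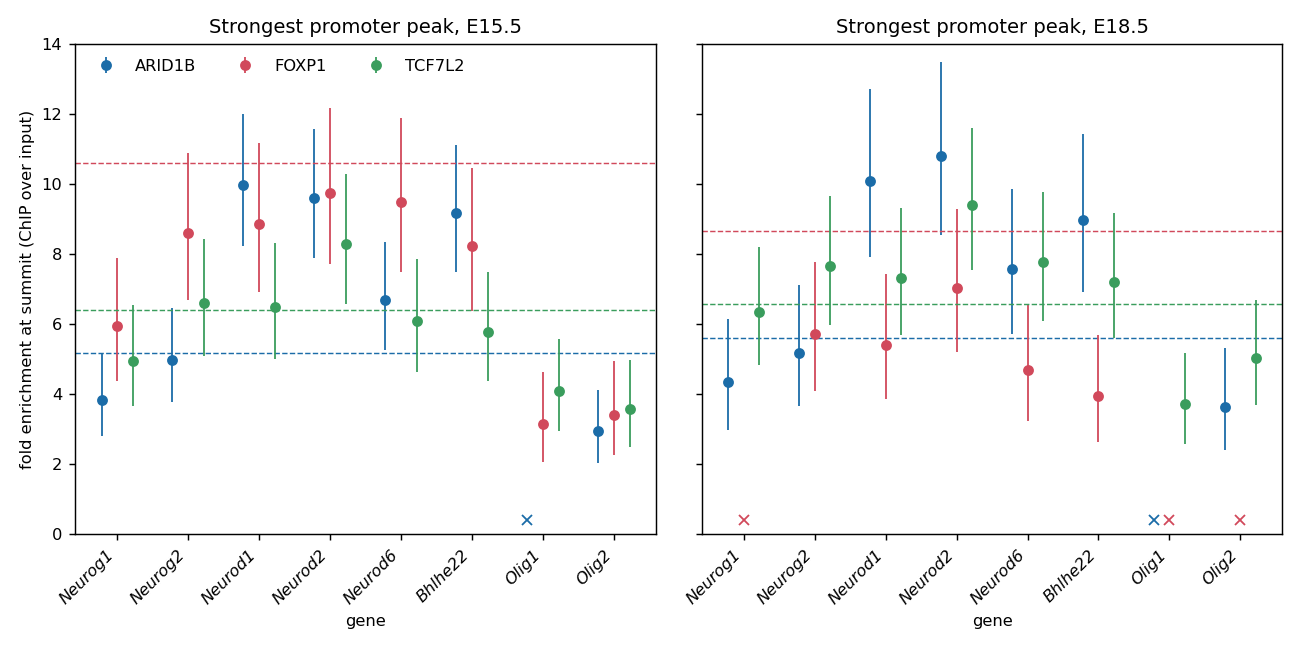
Fold enrichment (ChIP over input) at the summit of the strongest promoter peak of each gene at E15.5 (left) and E18.5 (right), with bars for the 95% Poisson interval of the reads at the summit, which covers counting error only. Dashed lines are the medians over all protein-coding promoters with a peak in the same list, and crosses near 0 mark genes without a promoter peak. ARID1B at Neurod1, Neurod2, and Bhlhe22 stands at 8.98-fold to 10.8-fold, while FOXP1 lies below its dashed line at every gene.

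**Figure D4:**
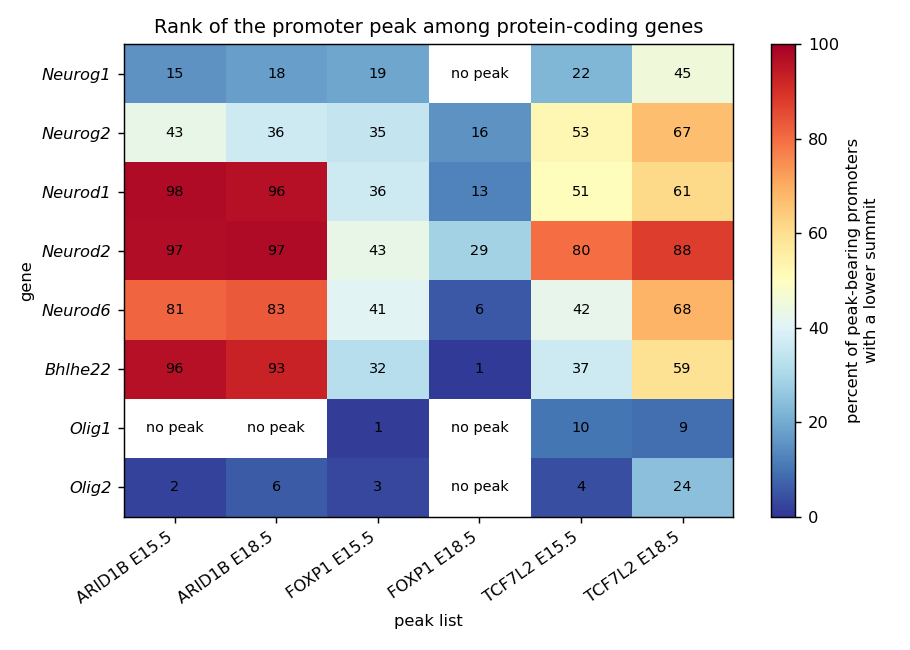
Rank of the strongest promoter peak of each gene (rows) in each peak list (columns), as the percent of peak-bearing protein-coding promoters with a lower summit. Neurod1, Neurod2, Neurod6, and Bhlhe22 are high for ARID1B, and the Olig1 and Olig2 rows are low or without a peak.

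Of the proneural pair, Neurog2 had the taller promoter peaks. Neurog2 (ENSMUSG00000027967.8, chr3:127633135-127635631, plus strand), which specifies glutamatergic neurons, stood, at E15.5, at 4.99-fold in the ARID1B list, 8.61 in the FOXP1 list, and 6.61 in the TCF7L2 list. At E18.5 the values were 5.19, 5.71, and 7.66. The summits lay 326 to 580 bp upstream of the TSS in all 6 lists. Those of FOXP1 and TCF7L2 fell inside the promoter window shown above, which holds a palindromic E-box, and those of ARID1B fell outside it. Neurog1 (ENSMUSG00000048904.5, chr13:56250478-56252163, minus strand), its paralog in the same progenitors, stood at 3.84, 5.95, and 4.94 at E15.5. At E18.5 it stood at 4.35 for ARID1B and 6.35 for TCF7L2, with no FOXP1 peak. The FOXP1 summit of Neurog1 at E15.5 was made of 46 reads (95% Poisson interval 33.7 to 61.4), and that of Neurog2 of 67 (51.9 to 85.1).

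Neurod1 and Neurod2 had the tallest ARID1B promoter peaks among the members. Neurod1 (ENSMUSG00000034701.9, chr2:79452521-79456751, minus strand) stood at 9.97-fold for ARID1B at E15.5 and 10.1 at E18.5, with 111 reads (91.3 to 134) and 71 reads (55.5 to 89.6) at the summit. FOXP1 stood there at 8.86 and 5.41, and TCF7L2 at 6.50 and 7.33. The peak also overlaps the promoter of Cerkl, a ceramide kinase-like gene that begins just upstream on the same strand, so the height cannot be given to either gene alone. Neurod2 (ENSMUSG00000038255.6, chr11:98325415-98329648, minus strand), a factor of maturing excitatory neurons, had promoter heights at E15.5 of 9.61 (ARID1B), 9.75 (FOXP1), and 8.28 (TCF7L2). Its values at E18.5 were 10.8, 7.03, and 9.41, and in every list its summit lay within 65 bp of the TSS. Neurod6 (ENSMUSG00000037984.9, chr6:55677822-55681263, minus strand), which is expressed in the same projection neurons, had 6.68, 9.49, and 6.08 at E15.5, in the same order of TRs. The values at E18.5 were 7.57, 4.68, and 7.77.

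Bhlhe22 stood near Neurod1 and Neurod2 for ARID1B and near Neurod6 for FOXP1 at E18.5. The gene (ENSMUSG00000025128.7, chr3:18054174-18057517, plus strand) encodes a repressor that takes part in the areal identity of postmitotic neurons. Its promoter peak at E15.5 stood at 9.17 (ARID1B), 8.23 (FOXP1), and 5.77 (TCF7L2). At E18.5 it stood at 8.98, 3.94, and 7.22. The FOXP1 summit at E18.5 held 25 reads (16.2 to 36.9) and ranked at 0.837, near the lowest promoter peaks of that list.

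The Olig promoters carried low peaks where they carried any. Olig2 (ENSMUSG00000039830.9, chr16:91225457-91228677, plus strand), a determinant of the oligodendrocyte lineage, had promoter peaks of 3.58 (TCF7L2), 3.42 (FOXP1), and 2.95 (ARID1B) at E15.5. At E18.5 it had 3.65 for ARID1B and 5.04 for TCF7L2. Olig1 (ENSMUSG00000046160.6, chr16:91269772-91271933, plus strand), a partner gene in oligodendrocyte maturation, had 3.16 for FOXP1 and 4.10 for TCF7L2 at E15.5 and 3.72 for TCF7L2 at E18.5. Its summits lay 162 to 540 bp downstream of the TSS, and when the summit itself had to lie in the promoter, Olig1 had no promoter peak in any list.

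Between stages, ARID1B ratios of the members lay around that of the list as a whole, FOXP1 ratios lay below it, and most TCF7L2 ratios above it. For ARID1B, the ratio of E18.5 to E15.5 ran from 0.979 (Bhlhe22) to 1.24 (Olig2), beside a median of 1.08 (quartiles 0.982 and 1.20) over 12303 protein-coding genes with a peak at both stages. For FOXP1, the ratios were 0.722 at Neurod2, 0.663 at Neurog2, 0.611 at Neurod1, 0.493 at Neurod6, and 0.479 at Bhlhe22. All 5 were below the median of 0.783 (quartiles 0.697 and 0.882) over 12047 genes, with Neurod2 between the quartiles. The ratios of Neurod6 and Bhlhe22 were lower than in all but 4.03% and 3.81% of genes. For TCF7L2, the median was 1.06 (quartiles 0.970 and 1.15) over 12515 genes, and 7 of 8 members were above it. They ran from 1.13 at Neurod1 to 1.41 at Olig2, with Neurod1 and Neurod2 (1.14) below the upper quartile. Olig1 stood at 0.907. The FOXP1 lists differ in depth and in the background to which the heights are set, and how far this enters the ratios was not tested.

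Peaks of the 3 TRs were next merged into loci where they overlapped at a stage. At E15.5, 44 of 108 loci at the 8 genes (40.7%) held peaks of all 3 TRs, beside 30.1% of all loci in the genome. At E18.5, 25 of 124 (20.2%) did, beside 22.9%. Neurod2 supplied 19 of the 44 and 16 of the 25. Without Neurod2, 25 of 78 loci (32.1%) at E15.5 and 9 of 90 (10.0%) at E18.5 held all 3 TRs, so the share above the genome at E15.5 rests mostly on Neurod2. In the Olig windows, Olig1 had 5 and Olig2 had 4 such loci at E15.5, with loci in both windows counted for each gene. Neither could have any at E18.5, where no FOXP1 peak was called in these windows. With FOXP1 left aside, ARID1B and TCF7L2 shared 62 of 121 loci at E18.5 (51.2%, beside 42.9% in the genome) and 54 of 100 at E15.5 (54.0%, beside 37.2%). Without Neurod2 the shares were 47.1% and 42.5%.

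Over all 6 lists there were 119 loci at the 8 genes, of which 23 held a peak in every list (19.3%, beside 17.7% of all loci in the genome) and 39 a peak in a single list (32.3% in the genome). TCF7L2 at E18.5 was the only list with a peak at 19 of the 119 loci, beside 7.08% of all loci in the genome. These were 19 of the 39 loci with a peak in a single list, beside 6647 of 30315 such loci in the genome. Without Neurod2, 9 of 91 loci (9.89%) held a peak in every list. Outside the promoters of the 8 genes, 18 loci held a peak in every list, of which 13 were at Neurod2, 3 at Neurog1, and 1 each at Neurog2 and Neurod6. In these 18, the summits of the 6 lists lay within 29 to 566 bp of each other (median 182 bp) in loci 889 to 3958 bp wide. When the FOXP1 E18.5 list was set aside, 40 of 117 loci (34.2%) held a peak in each of the other 5 lists, beside 24.9% in the genome, and without Neurod2 24 of 89 (27.0%) did.

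The Neurod2 window was occupied on both sides of the gene. Downstream of the TSS, the 6 loci with a peak in every list lay 10.3, 12.4, 15.7, 34.9, 41.9, and 45.2 kb away, all with the tallest summit in intergenic sequence, and the last overlapped the promoter of Gm20644. Upstream, they lay 4.77, 9.05, 13.1, 28.9, 39.8, and 42.2 kb away, with a further locus at the start of Ppp1r1b between the third and the fourth of these. The 3 nearest were intergenic. Ppp1r1b is a regulator of dopamine signaling best known from the striatum. The locus at 28.9 kb covered the start of Stard3, a cholesterol transfer protein, and the promoter of 1700003D09Rik, and the last pair lay in introns of Stard3. Over the 14 Neurod2 loci with a peak in every list, promoter included, the median height ranged from 5.64 for FOXP1 at E18.5 to 7.84 for FOXP1 at E15.5. The tallest peak at any of the 8 genes was FOXP1 at the Stard3 start (chr11:98357683-98358986), at 28.6-fold with 225 reads (197 to 256) at E15.5 and 11.4-fold at E18.5. ARID1B stood there at 6.06 and 6.17 and TCF7L2 at 7.13 and 7.77.

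**Figure D5:**
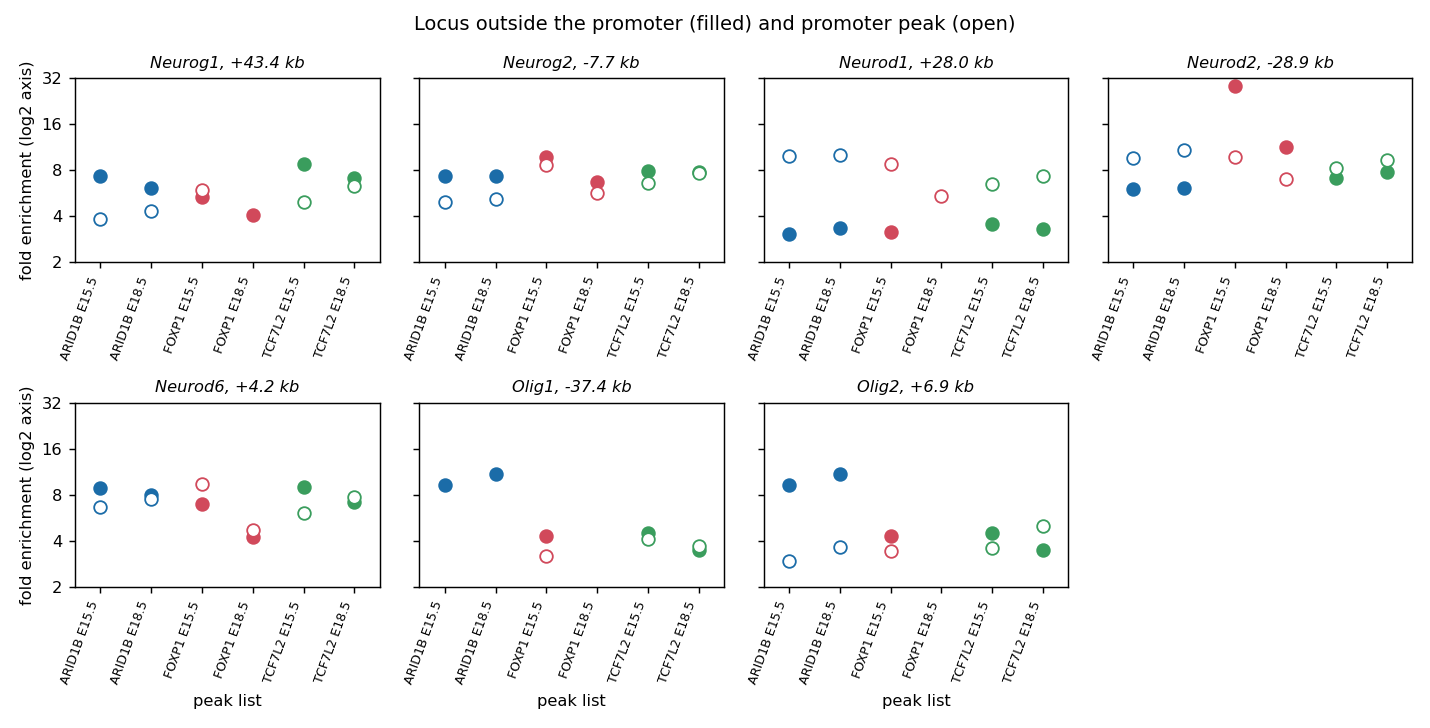
Fold enrichment on a log2 axis in each peak list at the locus outside the promoter with peaks in most lists (filled, position from the TSS in the panel title) for 7 of the genes and at the promoter of the same gene (open); a missing point is a list without a peak. Olig1 and Olig2 share their locus, where ARID1B stands at 9.35 and 10.9 and no other TR exceeds 4.52.

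Both Neurog genes had a locus outside the promoter with a peak in every list. Neurog2 had a peak in every list 7.68 kb upstream (chr3:127625185-127626936, intergenic), which stood at 7.39 (ARID1B), 9.75 (FOXP1), and 7.96 (TCF7L2) at E15.5. The values at E18.5 were 7.29, 6.74, and 7.77. In all 6 lists the value was above that of the Neurog2 promoter, but the counting intervals overlapped in each, as for ARID1B at E15.5 with 82 reads (65.2 to 102) against 55 (41.4 to 71.6). Neurog1 had a peak in every list 43.4 kb downstream (chr13:56208115-56209555, intergenic), which stood at 7.30, 5.32, and 8.80 at E15.5. At E18.5 it stood at 6.17, 4.09, and 7.12. There the E15.5 summits of ARID1B (81 reads, 64.3 to 101) and TCF7L2 (83 reads, 66.1 to 103) lay beyond the intervals of the promoter (42 reads, 30.3 to 56.8, and 46 reads, 33.7 to 61.4). At E18.5 the intervals overlapped for both, with 43 reads (31.1 to 57.9) against 30 (20.2 to 42.8) for ARID1B and 64 (49.3 to 81.7) against 57 (43.2 to 73.9) for TCF7L2. The FOXP1 value at E15.5 was higher at the Neurog1 promoter (5.95), and the distal locus was taken as the tallest of 3 with a peak in every list. Neurog1 had other loci with a peak in every list 30.9 kb downstream, intergenic, and 44.1 kb upstream, at the start of the chemokine gene Cxcl14.

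A locus 8.80 kb downstream of Neurog2, singled out after its values were seen, held FOXP1 alone. It stood at 6.33-fold at E15.5 with 49 reads (36.3 to 64.8) and at 9.39-fold at E18.5 with 62 reads (47.5 to 79.5), and neither ARID1B nor TCF7L2 had an overlapping peak at either stage. It was the tallest FOXP1 peak of the Neurog2 window at E18.5.

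Distal loci at Olig2 and Neurod6 ranked higher in the ARID1B lists than in those of the other TRs. The locus 6.87 kb downstream of the Olig2 TSS (chr16:91232052-91232786, intergenic, between Olig2 and Olig1) stood at 9.35 for ARID1B at E15.5 and 10.9 at E18.5. These were higher than 96.7% and 97.4% of all peaks of those lists. FOXP1 at E15.5 stood there at 4.30 (53.0%), TCF7L2 at 4.52 (54.0%) and 3.50 (46.4%), and FOXP1 at E18.5 had no peak. The locus 33.9 kb downstream of Neurod6 (chr6:55645550-55648441, intergenic), also chosen after its values were seen, showed 8.81 and 9.40 for ARID1B (95.9% and 95.4% of the lists lower). FOXP1 had 6.45 there at E15.5 (77.8%) and no peak at E18.5, and TCF7L2 had 4.62 (55.9%) and 5.47 (78.9%).

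Neurod1 and Neurod6 also carried strong loci close to the gene. Upstream of Neurod1, a locus (chr2:79458598-79460933) that touches the outer edge of its promoter, overlaps that of Cerkl, and was likewise singled out afterwards had its tallest summit 3.67 kb from the TSS, in an exon of the lincRNA Gm26755. ARID1B stood there at 10.3 at E15.5 and 10.2 at E18.5, FOXP1 at 5.32 at E15.5 only, and TCF7L2 at 4.31 and 4.60. By contrast, the Neurod1 locus outside the promoter with peaks in most lists was low in all 5 of its lists (3.04 to 3.58). This locus lay 28.0 kb downstream in Cerkl and overlapped another promoter of that gene. At Neurod6, a locus that covers the end of the gene with its tallest summit just past it (chr6:55674578-55678358, 4.22 kb downstream of the TSS) held a peak in every list. TCF7L2 stood there at 9.01 at E15.5 (95.2% of its list lower) and 7.22 at E18.5, ARID1B at 8.90 and 7.99, and FOXP1 at 6.96 and 4.24.

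The share of summit windows with a motif was set beside that of the whole list, with no test. For the proneural E-box it was higher at the 8 genes in 4 lists and lower in 2. The proneural E-box was found in 28.0% of 75 TCF7L2 windows at E15.5 (17.3% of all windows of the list) and in 25.6% of 39 FOXP1 windows at E18.5 (14.4%). Of these 75 and 39 windows, 29 and 21 were at Neurod2. The shares for ARID1B were 31.2% at E15.5 (28.9%) and 23.1% at E18.5 (28.3%). FOXP1 at E15.5 had it in 25 of 104 windows (22.1% of the list), and TCF7L2 at E18.5 in 15.4% (19.1%). The palindromic E-box was in 10.3% to 21.3% of windows at the 8 genes, beside 13.1% to 19.6% over the whole lists. The forkhead core was below the share of the whole list in all 6 lists, with at most 2 windows in a list. It was in none of the 104 FOXP1 windows at E15.5 and none of the 39 at E18.5, beside 2.90% and 2.28% of all windows, and the TCF/LEF core was in 1 of 75 and 2 of 117 TCF7L2 windows, beside 2.35% and 2.58%. Windows of different lists at the same locus share their sequence, so the counts of the 6 lists are not independent. With each of the 119 distinct loci taken once, at its tallest summit, 27 (22.7%) held the proneural E-box. That share was not computed for the genome. In RefSeq promoters (250 bases before to 50 after the start, GRCm38.p6), where 6 of the 8 genes were matched, the proneural E-box was found for Neurod2 alone, beside 17.2% of 32851 promoters, and the other motifs for none of the 6, beside 16.3% (palindromic E-box), 3.65% (forkhead core), and 3.73% (TCF/LEF core).

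Other genes of the pathway were counted by their promoters. Of 10 bHLH relatives, ARID1B had a promoter peak at 4 at E15.5 and 5 at E18.5, FOXP1 at 7 and 3, and TCF7L2 at 6 and 8, beside 55.0% to 61.8% of protein-coding genes in a list. Neurog3, an endocrine pancreas factor, had none in any list. Bhlhe23 and Olig3, the closest relatives of Bhlhe22 and of the Olig genes, had a promoter peak only of TCF7L2 at E18.5 (2.63 and 3.61). Of 17 Notch pathway genes, 14 had a promoter peak in all 6 lists (51.8% of protein-coding genes), with Hes6, a bHLH antagonist of Hes1, highest of the 17 for ARID1B (12.5 and 14.3) and for TCF7L2 at both stages (15.6 at E15.5). The ligand Dll1, a target of Neurog2, stood between 4.97 (FOXP1, E18.5) and 7.97 (FOXP1, E15.5). Of 4 genes that follow the proneural factors, Tbr1 and Rnd2 had a peak in all 6 lists (51.8%), and Eomes and Dcx lacked FOXP1 at E18.5.

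The genes whose promoter heights were most like those of a member were found by the Euclidean distance of log2 fold enrichment over the 6 lists, among 11376 genes with a peak in each. Cerkl lay at distance 0 from Neurod1 because they share the peak, and Tspan18 (0.179) and Rtn4rl2 (0.331) came next. For Neurod2 they were Sema7a (0.235), Sez6 (0.259), and Meis2 (0.286), and for Neurog2 Gnai1 (0.195), Tacc2 (0.196), and Cdc14a (0.202). For Neurod6 they were Bend3 (0.270), Pbx3 (0.345), and Plpp3 (0.393), and for Bhlhe22 Ccdc9b (0.408), Sdc3 (0.421), and Tspan18 (0.471). The distances are a description over 6 lists.

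Some peaks lay just inside or just outside the 50 kb limit. At Olig2, an ARID1B E18.5 peak of 6.45-fold ended 802 bp inside the window, and another of 3.51-fold ended 715 bp outside. At Neurog1, a TCF7L2 E18.5 peak of 3.83-fold lay 457 bp outside. At Neurod1, an ARID1B E18.5 peak of 5.19-fold lay 2338 bp outside.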

How the data were processed

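The series holds 24 libraries from wildtype mouse cortex, 12 from ChIP and 12 from input, with 2 biological replicates for each TR and stage. The authors aligned single-end reads to mm10 with BWA 0.7.15, kept alignments with a mapping quality of at least 30, merged the replicates (as the methods state), and called narrow peaks with MACS2 2.2.7 at a q-value of 0.01 without local background or model, extending reads to 200 bp. How duplicates were handled is not given in the sources used. The deposited lists give each summit a ratio (fold enrichment, with a pseudocount of 1) and a −log10 p, both the authors' values. The 6 lists were compared as they stand.

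Peaks on chromosomes 1 to 19, X, Y, and M were used, and overlap meant at least 1 base. All of them ended within their GRCm38 chromosome. Reads at a summit were recovered from the fold enrichment and −log10 p, which the Poisson model of MACS2 ties to a constant background per list and which fitted all pairs within 0.01. Their 95% Poisson intervals cover counting error only, since merged reads carry no molecular identifiers. The scripts for depth, overlap, and motifs were tested on simulated data. Python 3.11.15, pandas 2.3.3, SciPy 1.17.1, and matplotlib 3.10.9 were used.

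The named loci are, for each gene, the locus outside its promoter with peaks in most lists, ties by height, and every such locus in all 6 lists. The values of 1 pathway gene and of 1 named locus are not reported here. The genes and lists of pathway and marker genes were chosen with earlier results of these data known. No test was run, since each TR and stage has a single list. Alternatives were flanks of 25 and 100 kb, other promoter limits, stricter peak thresholds, lists of 20000 peaks, and summit-based overlap.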

Additional observations from a re-analysis of the deposited data

How the results depend on the processing

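Of 93 recomputed counts, 60 stayed within 1.5 times the reported value and 33 did not. Leaving out a replicate could not be run, and no paired analysis was possible because each TR and stage has a single list. With lists in the order ARID1B, FOXP1, and TCF7L2 at E15.5, then the same at E18.5, the peaks at the 8 loci were 57, 65, 49, 68, and 21 with a 25 kb flank (TCF7L2 at E18.5 stayed within the limit). They were 43, 39, 26, 39, 8, and 33 at a −log10 p of at least 15. A fold enrichment of at least 4 left 48, 50, 46, and 56, and 42 for TCF7L2 at E18.5, with FOXP1 at E18.5 within the limit. The 20000 peaks of lowest p gave 34, 34, 46, and 34, and 41 for TCF7L2 at E18.5. Fewer peaks or a smaller window enter these counts by construction.

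Members with a FOXP1 promoter peak at E18.5 numbered 1, Neurod2, at a −log10 p of at least 15 (41.7% of protein-coding genes) and 2, Neurog2 and Neurod1, when the summit had to lie in the promoter (44.8%). TCF7L2 at E15.5 then had 5 members (45.4%), and ARID1B at E18.5 had 4 among the 20000 peaks of lowest p (33.8%). Loci with all 3 TRs at E15.5 numbered 29 with a 25 kb flank, 20 at a −log10 p of at least 15, and 24 among the 20000 peaks. At E18.5 they numbered 15, 7, and 16. With alternatives chosen after seeing the data, loci in every list numbered 40 without FOXP1 at E18.5, against 23. ARID1B and TCF7L2 alone shared 62 loci at E18.5 against 25 for all 3 TRs. Requiring fewer lists raises such counts largely by construction. The genome shares rose as well, from 17.7% to 24.9% and from 22.9% to 42.9%. The FOXP1 E18.5 list has the lowest recovered depth, that of its input, and peaks below its lowest called height could not be detected in it.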
